A study of Mus musculus with 2 samples.

Results

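The cell cycle genes described here are 40 genes, 15 of S phase and 25 of G2 and mitosis (G2/M), chosen by symbol from the 27998 genes of the expression table, and all 40 were found. They were measured by droplet single-cell RNA-seq (10x Chromium 3' kit, v2) in Tomato+ cells sorted by FACS from the dermis of healing mouse skin wounds, in 1 library of control mice (SM22rtTA; tetO-Cre; R26-Tomato) and 1 library of SM22-SmoM2 mice (SM22rtTA; tetO-Cre; R26-SmoM2/Tomato). Mice were 4 to 5 weeks old, and both genotypes received doxycycline at 20 g/kg from day 1 after wounding until 3 days after the wound had re-epithelialized. Doxycycline lets rtTA, which is made under the SM22 (Tagln) promoter, switch on Cre, so that Tomato and, in SM22-SmoM2 mice, the constitutively active Smoothened mutant SmoM2 are made in cells that have used this promoter and in their progeny. Control mice carry the same rtTA, Cre and Tomato alleles and received the same doxycycline. Each library pooled wounds of several mice, so a library is 1 sample, library and genotype cannot be told apart, and no difference between them was tested.

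A dividing cell copies its DNA in S phase and separates the copies in mitosis, and many of the proteins it needs are made only then, so the transcripts mark cells that are passing through these phases. The MCM2-7 helicase is loaded on origins with the help of Cdc6 and starts DNA synthesis with GINS. Cyclin A, cyclin B and Cdk1 drive entry into mitosis, Aurora kinases, Bub1 and Plk1 steer spindle assembly and chromosome attachment, and the anaphase-promoting complex with Cdc20 and Ube2c marks cyclin B for destruction. Wound fibroblasts divide as they fill the wound bed, and the Hedgehog pathway, which Smoothened switches on, is known as a mitogen in several tissues, with the cyclin D and Myc family genes among its described targets.

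Genes of the G2/M group are known to be controlled through the cell cycle homology region (CHR) and CCAAT boxes, and S-phase genes through E2F sites. Both kinds of site were searched for in RefSeq promoter windows (GRCm38.p6, the build also called mm10) that run from 250 bases before to 50 bases after each annotated start. Windows were given for 33 of the 40 members, 34 windows in all, because Mcm7 has 2. The letters searched, on both strands, were TTTGAA and TTCGAA for CHR, CCAAT for the CCAAT box, and TTGGCGC and TTCCCGC for E2F. A CHR match was present in 15 of 20 G2/M windows (75.0%), in 2 of 14 S windows (14.3%) and in 19.2% of all 32851 windows. Each of those 15 G2/M windows also held CCAAT, a pairing found in 7.52% of all windows. An E2F match was present in 8 of 14 S windows (57.1%), in 3 of 20 G2/M windows (15%) and in 6.81% of all windows. CCAAT alone separated the groups less, with matches in 85.0% of G2/M windows, 71.4% of S windows and 37.4% of all windows. E2F and CCAAT matches overlapped in 1 S and 1 G2/M window, and CHR overlapped neither in any member. Such a match is a description of the letters and not a mapped binding site. The 250 bases before the start are shown for 3 G2/M and 2 S genes, picked after the matches were known to show how the sites are placed, with CHR and CCAAT in capitals in the first 3 and E2F in capitals in the last 2.
Cdc20 (chr4:118437344-118437593, minus strand): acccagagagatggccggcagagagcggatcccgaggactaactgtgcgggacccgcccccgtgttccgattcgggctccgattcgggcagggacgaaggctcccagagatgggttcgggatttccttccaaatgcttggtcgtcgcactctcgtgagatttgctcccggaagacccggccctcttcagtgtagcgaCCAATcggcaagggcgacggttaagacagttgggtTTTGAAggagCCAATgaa
Cdk1 (chr10:69352913-69353162, minus strand): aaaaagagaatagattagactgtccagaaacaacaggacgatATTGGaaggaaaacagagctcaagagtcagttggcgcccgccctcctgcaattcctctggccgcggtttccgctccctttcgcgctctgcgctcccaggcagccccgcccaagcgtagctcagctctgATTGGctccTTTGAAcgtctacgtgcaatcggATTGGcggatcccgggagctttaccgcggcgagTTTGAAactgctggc
Top2a (chr11:99024190-99024439, minus strand): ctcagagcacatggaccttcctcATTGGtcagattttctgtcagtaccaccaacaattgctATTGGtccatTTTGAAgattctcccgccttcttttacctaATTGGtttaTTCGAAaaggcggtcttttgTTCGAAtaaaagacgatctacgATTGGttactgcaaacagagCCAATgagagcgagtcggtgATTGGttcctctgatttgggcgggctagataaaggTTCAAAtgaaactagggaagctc
Mcm5 (chr8:75109259-75109508, plus strand): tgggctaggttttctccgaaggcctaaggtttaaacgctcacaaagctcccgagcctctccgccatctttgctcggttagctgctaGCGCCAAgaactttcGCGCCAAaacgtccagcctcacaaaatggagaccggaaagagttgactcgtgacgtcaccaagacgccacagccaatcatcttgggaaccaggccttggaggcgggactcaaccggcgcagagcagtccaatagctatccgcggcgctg
Mcm6 (chr1:128359706-128359955, minus strand): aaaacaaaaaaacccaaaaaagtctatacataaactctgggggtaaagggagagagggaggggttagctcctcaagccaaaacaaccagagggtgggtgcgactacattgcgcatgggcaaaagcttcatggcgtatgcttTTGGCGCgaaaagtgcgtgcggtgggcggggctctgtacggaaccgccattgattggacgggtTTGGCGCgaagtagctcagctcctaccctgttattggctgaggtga
In Cdc20 the CHR started 18 bases before the transcript start, with CCAAT boxes at 53 and 8 bases. Cdk1 held a CHR at 15 and another at 71 bases. Top2a held 4 CHR matches, the nearest at 23 bases, and 6 CCAAT boxes. In Mcm5 the E2F matches lay at 164 and 149 bases, and in Mcm6 at 109 and 46 bases. Pcna, which is shown in no sequence, had a single CCAAT box and no E2F match in its window.

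The files held 2878 control and 1802 SM22-SmoM2 cells, of which 2856 and 1792 were kept after 22 and 10 cells with over 10% mitochondrial unique molecular identifiers (UMIs, the counted transcript molecules) were left out. Median depth was 8607.5 UMIs for control and 8837.5 for SM22-SmoM2 cells, and the shallowest cell held 2538. Cells were clustered without the listed cycle genes and named by markers. Fibroblast-like cells, with Col1a1, Col3a1, Dcn, Lum, Dpt, Lox and Pdgfra among their markers, numbered 1040 and 1097, and 4 further lineages held at least 30 cells of each library. A gene list of the dermal papilla, the fibroblast cluster at the base of the hair follicle, placed 1 cluster of 50 SM22-SmoM2 cells among the fibroblasts although only 2 of the 7 fibroblast markers were raised in it. A cell was called cycling when at least 4 of the 40 genes had a UMI after every cell was thinned at random to 2500 UMIs, so that cells were compared at 1 depth.

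Cycling cells made up a larger share of the fibroblast-like cells in the SM22-SmoM2 library than in the control library. They were 161 of 1097 cells (14.7%, 95% exact binomial interval 12.6 to 16.9%) against 109 of 1040 (10.5%, 8.69 to 12.5%), a difference of 4.20 percentage points (1.32 to 7.06). Intervals here cover counting error only and not the variation between mice, which 1 library per genotype cannot give. Without thinning, 38.1% of SM22-SmoM2 and 38.8% of control fibroblasts held 4 or more genes, in cells with median depths of 10941 and 12702.5 UMIs, so the difference was seen only at equal depth. Cycling cells were deeper than other fibroblasts in both libraries, with medians of 17907 against 12417 UMIs in the control and 12388 against 10506.5 in the SM22-SmoM2 library. Cells that held both sexes' transcripts were 5 of 109 cycling and 35 of 931 other control fibroblasts, and 2 of 161 and 26 of 936 in the SM22-SmoM2 library. Fibroblast markers summed to 47245 CPM in cycling and 57833 CPM in other control fibroblasts and to 27821 and 34803 CPM in SM22-SmoM2. Summed markers of endothelial, Schwann, muscle and immune cells each stood between 26 and 92.6 CPM in cycling and between 29.1 and 72.1 CPM in other fibroblasts, and in SM22-SmoM2 the muscle markers (92.6 against 63.8 CPM) and Schwann markers (52.5 against 29.6 CPM) were higher in cycling cells. Their part in the result was not tested. CPM here is UMIs per 1000000 summed UMIs of the named cells.

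Most fibroblasts held none or 1 of the genes, and a long tail held many. No gene was detected in 485 control cells (46.6%) and in 444 SM22-SmoM2 cells (40.5%). Cells at the edge of the definition, with exactly 3 genes, numbered 29 and 43, and those with exactly 4 numbered 14 and 23. Cycling cells held a median of 9 of the genes in both libraries and at most 19 in the control and 20 in SM22-SmoM2.

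**Figure D1:**
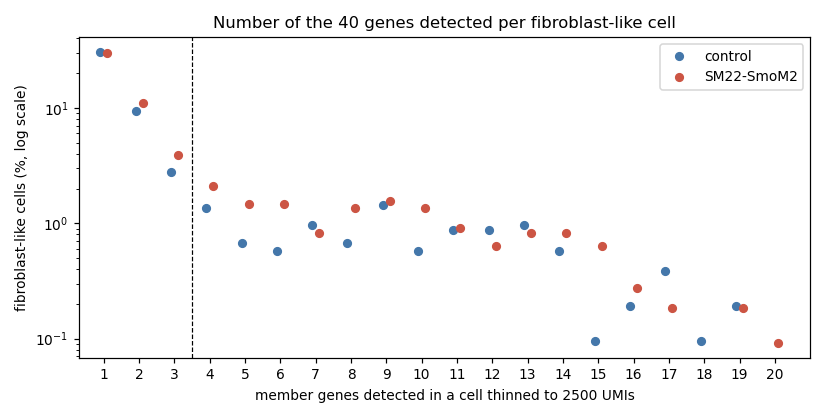
Share of fibroblast-like cells (log scale, in %) by the number of the 40 genes detected in 2500 UMIs, for the control (blue) and SM22-SmoM2 (red) library; each point is a share, cells with none of the genes and numbers that no cell reached are not drawn, and the dashed line stands between 3 and 4 genes. Both libraries have a tail of cells that reaches 19 genes in the control and 20 in SM22-SmoM2.

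The cycling cells did not spread evenly over the fibroblasts. K-means clustering of the fibroblast-like cells gave 1 sub-cluster led by Gm26870, Ube2c, Ccnb1 and Birc5. Every cell in it was cycling, 37 of 37 control and 52 of 52 SM22-SmoM2 cells. The listed cycle genes had been left out of the clustering. Unlisted genes concentrated in cycling cells, such as Fam64a, could still shape it, so this sub-cluster is no independent support for the call. Of all 109 control cycling cells, 54 lay in 1 sub-cluster led by Nov, Dlk1 and Sfrp2, where 54 of 288 cells (18.8%, 14.4 to 23.7%) cycled, and which held only 3 SM22-SmoM2 cells. In the SM22-SmoM2 library the highest share outside the sub-cluster led by cycle genes was in cells led by Egfl6, Igfbp2 and Dkk1, with 24 of 82 (29.3%, 19.7 to 40.4%), and these cells held 2 control cells. The dermal-papilla-like sub-cluster, led by a (agouti), Cd24a, Ibsp and Rspo3 with 12 of 12 genes of the dermal papilla list raised, had 0 cycling cells of 46, which allows a share of up to 7.71% by the exact binomial interval (6.52% by a floor of 3 cells). Its median depth was 4530.5 UMIs.

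Sub-clusters that both libraries filled allow a like-for-like reading. In cells led by Crabp1, Igfbp2 and Prss35, 19 of 124 SM22-SmoM2 cells cycled (15.3%, 9.48 to 22.9%) against 12 of 292 control cells (4.11%, 2.14 to 7.07%), at median depths of 12419 and 12282 UMIs. In cells led by Ctla2a, Mmp13 and Igfbp2 the counts were 8 of 116 (6.90%, 3.02 to 13.1%) against 4 of 228 (1.75%, 0.480 to 4.43%). Over these sub-clusters together, chosen after the data were seen, 11.2% of SM22-SmoM2 and 3.08% of control cells cycled. Leaving out the control sub-cluster led by Nov and Dlk1 alone lowered the control share from 10.5% to 7.31%.

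**Figure D2:**
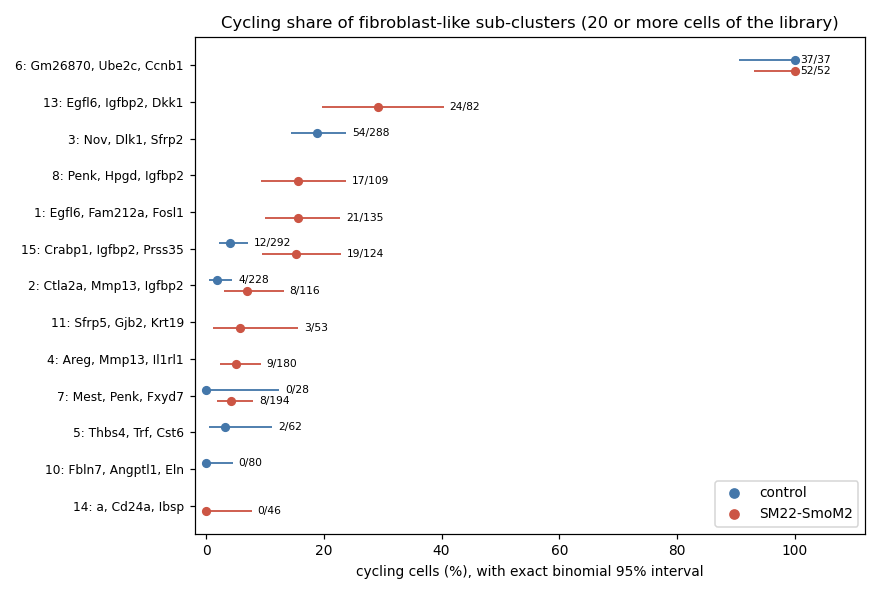
Percent of cycling cells in each fibroblast-like sub-cluster with at least 20 cells of the library (points, with exact binomial 95% intervals and cell counts), control in blue and SM22-SmoM2 in red, labelled by leading genes. In both well-filled shared sub-clusters not led by cycle genes, 15 and 2, the SM22-SmoM2 point lies to the right of the control point.

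Summed over all fibroblast-like cells, the S-phase genes were somewhat higher in SM22-SmoM2. They summed to 422 CPM against 368 CPM in the control (log2 ratio 0.20, exact interval 0.14 to 0.26), and 12 of 15 had a ratio above 0. All 40 members held at least 10 UMIs in fibroblasts. Of these, 3 were at least 1.5-fold higher in SM22-SmoM2 (Mcm7, Top2a and Mki67) and 0 were 1.5-fold lower, while 15.8% of the 14153 genes with 10 UMIs were higher by that much and 14.8% lower. With 1 library a genotype there is no test behind these counts. The median log2 ratio was 0.18 for S genes, -0.18 for G2/M genes and -0.05 for all genes.

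Among the origin licensing genes, Mcm7, Mcm6 and Mcm5, subunits of the MCM helicase, had the highest ratios of summed UMIs. Mcm7 stood at 17.5 CPM in the control and 26.6 CPM in SM22-SmoM2 (log2 ratio 0.61, interval 0.36 to 0.85), Mcm6 at 21.9 and 28.5 CPM (0.38, 0.15 to 0.61) and Mcm5 at 10.0 and 12.8 CPM (0.35, 0.01 to 0.69). The other helicase subunits Mcm2, Mcm3 and Mcm4 had ratios of 0.10, 0.15 and 0.22, each with an interval that spans 0. So did the loading factor Cdc6 (0.18) and the GINS subunit Gins2 (-0.14). Together the licensing genes went from 109 to 130 CPM (0.25).

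Pcna, the sliding clamp of the DNA polymerases, stood at 44.1 CPM in the control and 65.3 CPM in SM22-SmoM2 (log2 ratio 0.57, interval 0.41 to 0.72). Hells, a chromatin remodeller needed for DNA methylation, stood at 10.2 and 14.7 CPM (0.53, 0.20 to 0.86). Rrm2, the regulated subunit of ribonucleotide reductase, stood at 26.1 and 33.4 CPM (0.35, 0.15 to 0.56). Its partner Rrm1, whose protein is more stable through the cycle, was at 41.0 and 37.2 CPM (-0.14, -0.32 to 0.04), and thymidylate synthase Tyms at 38.9 and 39.2 CPM (0.01). Ung, which removes uracil from DNA, had the lowest ratio of the S genes, at 16.6 and 11.5 CPM (-0.53, -0.85 to -0.23). Slbp, the binding protein of histone mRNA, was at 81.4 and 90.7 CPM (0.16, 0.04 to 0.28).

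The G2/M genes summed over all cells were lower in SM22-SmoM2, with members on both sides of 0 among the kinases and among the chromosome genes. Their sum was 730 CPM in SM22-SmoM2 against 817 CPM in the control (log2 ratio -0.16, -0.20 to -0.12), and 18 of 25 had a ratio below 0. Cyclins and kinases summed to 214 against 263 CPM (-0.29), and the destruction genes Cdc20 and Ube2c to 107 against 139 CPM (-0.37). Genes of chromosomes, kinetochores and the spindle stood close to even, at 408 against 416 CPM (-0.03, -0.08 to 0.03).

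Cdk1, the kinase that starts mitosis, stood at 59.7 CPM in the control and 41.6 CPM in SM22-SmoM2 (log2 ratio -0.52, -0.68 to -0.36). Its partners Ccnb1 (-0.42), Ccnb2 (-0.31) and Ccna2 (-0.26) were lower too. Cdc20 was at 48.2 and 35.9 CPM (-0.42) and Ube2c, the ubiquitin-conjugating enzyme of the same complex, at 90.5 and 71.3 CPM (-0.34). Plk1 was at 10.2 and 7.70 CPM (-0.40, -0.79 to -0.02), Aurka at 15 and 13.4 CPM (-0.16), Aurkb at 13.1 and 14.4 CPM (0.13) and the kinase Pbk at 25.4 and 22.4 CPM (-0.18). The checkpoint kinase Bub1 stood apart from these, at 6.59 and 9.23 CPM (0.49, 0.08 to 0.90).

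Top2a, the topoisomerase that untangles sister chromatids, was at 32.1 CPM in the control and 51.5 CPM in SM22-SmoM2 (log2 ratio 0.68, 0.50 to 0.86). Mki67, which coats mitotic chromosomes, was at 13.5 and 20.6 CPM (0.61, 0.34 to 0.90). The kinetochore motor Cenpe (0.37) and the spindle protein Nusap1 (0.27) were also higher, and Cenpf was at 0.04. Cenpa, the centromeric histone, went the other way, at 93.6 and 66.8 CPM (-0.49, -0.62 to -0.36), as did the hyaluronan-mediated motility receptor Hmmr at 19.2 and 14.4 CPM (-0.42). The remaining spindle and chromosome genes Birc5, Tpx2, Kif11, Kif20a, Kif23, Spc25 and Tacc3 had ratios between -0.26 and -0.01, each with an interval that spans 0.

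The direction for the G2/M genes depended on how cells were weighted. A sum of UMIs gives deep cells more weight, and control cycling cells were the deepest. With each cell thinned to 2500 UMIs the G2/M genes stood at 635 CPM in SM22-SmoM2 against 575 CPM in the control (log2 ratio 0.14, 0.04 to 0.24), and the S genes at 381 against 302 CPM (0.34, 0.20 to 0.47). The mean of per-cell CPM gave 0.14 for G2/M and 0.32 for S genes. Leaving out the sub-cluster led by Nov and Dlk1 gave 0.09 and 0.46. The S genes were therefore higher in SM22-SmoM2 under each of these weightings, while the G2/M genes changed sign.

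Single genes shifted with the weighting as well. After thinning, 10 of 40 members were at least 1.5-fold higher in SM22-SmoM2 and 1 was lower, against 16.4% higher and 16.5% lower among the 11622 genes with 10 UMIs in thinned cells. Mki67 was detected in 3.92% of SM22-SmoM2 and 1.54% of control fibroblasts (log2 ratio of thinned UMIs 1.82), Top2a in 6.75% and 3.94% (1.00), Nusap1 in 4.10% and 2.21% (1.00), and Mcm7 in 6.20% and 3.56% (0.83). Pcna, detected in 15% and 10.2%, kept a ratio of 0.58. The lower gene was Kif20a, a kinesin of the central spindle, in 1.64% and 2.60% (-0.87, from 19 and 33 UMIs). Cdc20 went from -0.42 to 0.09 (-0.34 to 0.52). Plk1 went from -0.40 to 0.36 (-0.61 to 1.35, from 17 control and 23 SM22-SmoM2 UMIs). Cdk1 stayed below 0 at -0.35 (-0.75 to 0.05). Each of these thinned intervals spans 0, so none of the 3 genes has a clear direction after thinning.

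**Figure D3:**
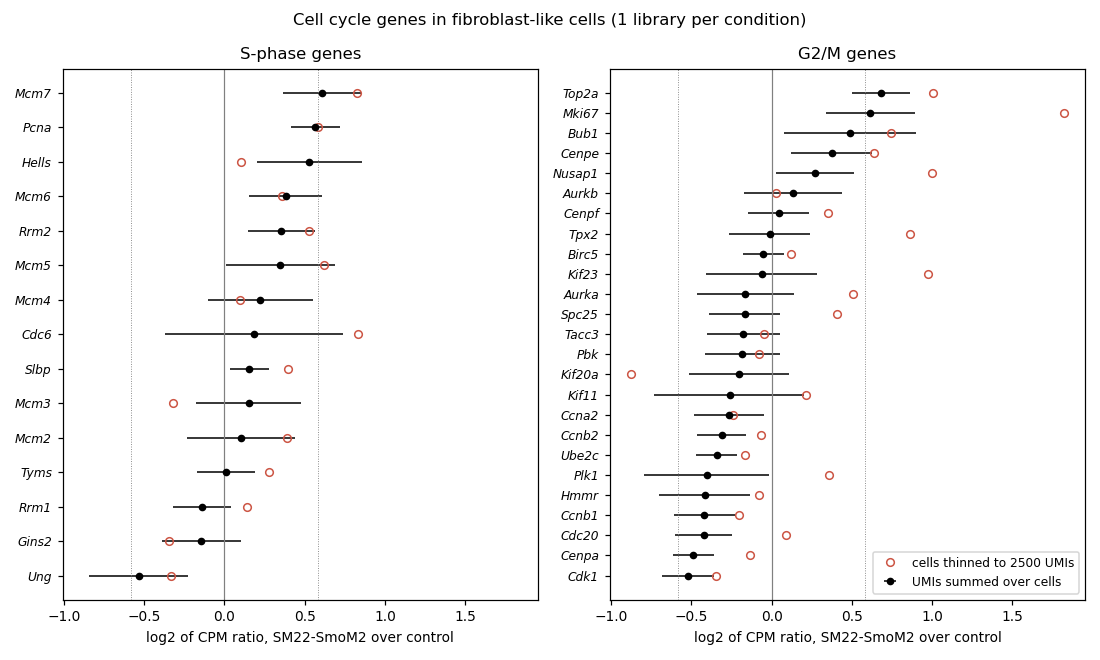
log2 ratio of CPM in SM22-SmoM2 over control fibroblast-like cells for the 15 S genes (left) and 25 G2/M genes (right); black points are UMIs summed over all cells with 95% counting intervals, open red points are cells thinned to 2500 UMIs, and dotted lines mark 1.5-fold. Of the S genes, 12 lie right of 0 by each measure, while for G2/M genes 7 do by summed UMIs and 15 after thinning.

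Nearly all G2/M transcripts came from the cells called cycling, which is built into the call. Of the G2/M UMIs of fibroblasts, 90.2% in the control and 89.5% in SM22-SmoM2 lay in cycling cells, which held 14.7% and 17.0% of all UMIs. For the S genes the shares were 43.7% and 50%. The other fibroblasts held the S genes at 243 CPM in the control and 254 CPM in SM22-SmoM2 and the G2/M genes at 93.4 and 92.0 CPM. Of the control UMIs of Slbp and Pcna, 24.1% and 33.3% lay in cycling cells, against 96.3% for Ccnb1 and 97.4% for Pbk. Within the cycling cells the S genes stood at 1095 CPM in the control and 1245 CPM in SM22-SmoM2, and the G2/M genes at 5023 and 3849 CPM.

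A cycling cell was called S-led when it held a larger part of the 15 S genes than of the 25 G2/M genes. S-led cells were 33 of 109 in the control (30.3%, 21.8 to 39.8%) and 58 of 161 in SM22-SmoM2 (36.0%, 28.6 to 44.0%), shares whose intervals overlap widely, and 1 and 10 cells lay near the dividing line. S-led cells held a median of 5 S and 2 G2/M genes in both libraries, and G2/M-led cells 1 S gene beside 9 G2/M genes in the control and 8 in SM22-SmoM2. Genes of both groups were found in 75 control and 126 SM22-SmoM2 cycling cells. The call uses detection of these same genes, so the following shares describe it and support nothing. Ccnb1 was detected in 61.8% of G2/M-led and 6.06% of S-led control cells, and in 37.3% and 12.1% of SM22-SmoM2 cells. Rrm2 was detected in 18.4% and 42.4% of control cells and in 14.7% and 44.8% of SM22-SmoM2 cells. Top2a was detected in 36.8% and 18.2% of control cells and in 50% and 24.1% of SM22-SmoM2 cells.

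Cycle genes that had no part in the call followed it. Of 62 further cycle genes, 61 in the control and all 62 in SM22-SmoM2 were at least 1.5-fold higher in cycling than in other fibroblasts, with median log2 ratios of 3.06 and 2.97, while 14.4% and 15.1% of all genes tested were higher by that much. The kinesin Kif2c went from 0.172 CPM in other to 41.4 CPM in cycling control cells, and from 0.483 to 31.7 CPM in SM22-SmoM2. H2afz, a histone variant made throughout the cycle, went from 656 to 2855 CPM and from 806 to 2813 CPM. Between the libraries, 9 of the 62 were 1.5-fold higher in all SM22-SmoM2 fibroblasts and 1, the replication factor Cdc45 (11.9 and 6.58 CPM), was lower. Of all genes, 15.8% were higher and 14.8% lower, so the count of higher genes is near the background and that of lower genes is below it. Hmgb2 (129 and 206 CPM) and Stmn1 (198 and 305 CPM) were among the 9.

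Outside any list, the genes whose transcripts were most concentrated in cycling cells of both libraries were Fam64a, Depdc1a, Neil3, Ncapg, Esco2, Shcbp1, Sapcd2, Kif15, Ska1 and Cep55, of 9331 genes ranked by the smaller of their log2 ratios. Fam64a stood at 0.172 CPM in other and 80.3 CPM in cycling control cells, and at 0.773 and 74.7 CPM in SM22-SmoM2. The genes lowest in cycling cells were Trf, Ctla2a, Mmp13, Slfn5 and Gstt2. Mmp13, a collagenase of wound healing, stood at 48.2 CPM in other and 6.98 CPM in cycling control cells, and at 66.1 and 11.8 CPM in SM22-SmoM2.

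Transcripts of Hedgehog targets stood at similar levels in cycling and other SM22-SmoM2 fibroblasts. Gli1, itself a target and a transcription factor of the pathway, stood at 30.7 CPM in cycling cells (exact interval 23.7 to 39.1) and 33.7 CPM in other cells (30.3 to 37.5). Ptch1, the Hedgehog receptor that holds Smoothened inactive, was at 162 CPM (145 to 180) and 144 CPM (137 to 152). Hhip, which binds Hedgehog ligands, was at 34.5 and 35.6 CPM, and the transcription factor Gli2 at 15.1 CPM in both. All were lower in the control library, with Ptch1 at 4.49 CPM (9 UMIs) in cycling and 13.7 CPM in other fibroblasts and Gli1 at 1.99 CPM (4 UMIs) and 6.43 CPM.

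From UMIs summed over cells, several regulators that act before S phase had ratios larger in size than any of the 40 genes. In thinned cells the highest member was Mki67 at 1.82 (1.05 to 2.66). Mycn (2.86) lay above this interval, from fewer UMIs than the 34 and 102 of its unthinned sums. Cdkn1a (1.91) lay within the Mki67 interval. Cdkn2a (1.57), Myc (1.17), Ccnd1 (0.99) and Gas1 (-0.97) were smaller in size than the Mki67 ratio. Of 33 regulators, 9 were at least 1.5-fold higher in SM22-SmoM2 fibroblasts and 2 lower, beside the 15.8% and 14.8% of all genes. Cdkn1a, an inhibitor of cyclin-dependent kinases, stood at 110 CPM in the control and 378 CPM in SM22-SmoM2 (log2 ratio 1.78, 1.70 to 1.86), and Cdkn2a, the locus of a further inhibitor and of Arf, at 31.2 and 107 CPM (1.78, 1.62 to 1.94). On the side of the activators, Ccnd1 stood at 24.8 and 46.1 CPM (0.89), Myc at 76.0 and 176 CPM (1.21) and Mycn at 2.49 and 8.18 CPM (1.72, from 34 and 102 UMIs). Gas1, a growth-arrest gene that also encodes a Hedgehog co-receptor, was lower, at 358 and 178 CPM (-1.01), as was Cdkn2c (-0.70). The S-phase activator E2f1 was at 29.0 and 20.3 CPM (-0.51), and Cdk4, which cyclin D activates, at 300.5 and 296 CPM (-0.02).

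In SM22-SmoM2 Cdkn1a and Cdkn2a were lower in cycling than in other fibroblasts, at 289 against 397 CPM and 81.3 against 113 CPM. The inhibitor Cdkn1b stood level there, at 27.9 against 27.6 CPM. Myc was lower too, at 113 against 189 CPM, while Ccnd1 (56.7 against 43.9 CPM) and Mycn (12.8 against 7.25 CPM) were higher. Cdkn1a and Cdkn2a still stood above the control cycling cells, at 129 and 31.9 CPM. In the control, other fibroblasts held Cdkn1a at 107 CPM and Cdkn2a at 31.1 CPM, so neither was lower in cycling cells there. Cyclin D2, Ccnd2, was lower in cycling cells of both libraries, at 115 against 248 CPM in the control and 115 against 237 CPM in SM22-SmoM2, as was the inhibitor Cdkn1c, at 156 against 293 and 136 against 210 CPM. Cdkn2c and Cdkn2d, inhibitors of the cyclin D kinases, were higher in cycling cells, at 198 against 42.0 CPM and 178 against 25.1 CPM in the control and at 120 against 23.8 and 106 against 25.7 CPM in SM22-SmoM2. E2f8, an E2F protein that represses transcription, went from 0.429 to 8.47 CPM and from 0.580 to 15.6 CPM. In the other lineages the Cdkn1a ratio between the libraries was smaller in size. It was -0.39 (-0.62 to -0.16) in immune-like, -0.11 in Schwann-like, -0.01 in muscle-like and 0.14 (0.005 to 0.28) in endothelial-like cells. The Cdkn2a ratio was above 0 in each of these lineages. It was 1.41 (0.30 to 2.48) in muscle-like, 0.59 (0.009 to 1.16) in Schwann-like and 0.59 (-0.65 to 1.71) in endothelial-like cells. In immune-like cells it was 3.11 (0.84 to 6.36), from 2 control and 9 SM22-SmoM2 UMIs.

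Among the other lineages, Schwann-like cells, the glia of peripheral nerves, showed the widest gap in cycling share. They cycled in 72 of 294 SM22-SmoM2 cells (24.5%, 19.7 to 29.8%) and 89 of 681 control cells (13.1%, 10.6 to 15.8%). All but 1 of the 40 genes had a ratio above 0 in Schwann-like cells, and 27 were at least 1.5-fold higher, against 8.47% of all genes in these cells, and 0 were lower by that much (13% of all genes). Hells (1.33), Bub1 (1.58), Spc25 (1.47) and Ccnb1 (1.35) had the largest log2 ratios, and Ung (-0.12) the only one below 0. Within the cluster that held most of the cycling Schwann-like cells the libraries stood close. This cluster, led by Crym, cycled in 63 of 149 SM22-SmoM2 cells (42.3%, 34.2 to 50.6%) and 68 of 174 control cells (39.1%, 31.8 to 46.8%), and it was 149 of 294 Schwann-like cells in SM22-SmoM2 but 174 of 681 in the control. The cluster led by Cadm4 and Gfra3 gave 7 of 81 (8.64%) and 12 of 287 (4.18%), and the one led by Sostdc1 gave 2 of 64 (3.12%) and 9 of 220 (4.09%). With each cluster given the same weight in both libraries the shares were 18.2% and 15.7%. The melanocyte gene Mlana was among the 10 leading genes of the cluster led by Crym.

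Endothelial-like cells cycled in 18 of 270 SM22-SmoM2 (6.67%, 4.00 to 10.3%) and 38 of 702 control cells (5.41%, 3.86 to 7.35%), and muscle-like cells, whose markers include the mural cell genes Rgs5 and Notch3, in 11 of 95 (11.6%, 5.92 to 19.8%) and 22 of 282 (7.80%, 4.95 to 11.6%). Immune-like cells cycled in 2 of 33 (6.06%, 0.743 to 20.2%) and 5 of 82 (6.10%, 2.01 to 13.7%). In none of these 3 lineages could a difference in share be seen at this number of cells. In endothelial-like cells 8 members, all of G2/M, were 1.5-fold higher (7.25% of all genes) and 1, Plk1, lower (10.6%), the last from 2 SM22-SmoM2 UMIs.

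Muscle-like cells showed S and G2/M genes on opposite sides. S genes summed to 453 CPM in SM22-SmoM2 against 361 CPM in the control (log2 ratio 0.33, 0.12 to 0.54) and G2/M genes to 602 against 1005 CPM (-0.74, -0.91 to -0.57). Of 39 members with 10 UMIs, 17 were 1.5-fold lower (18.8% of all genes) and 3, Mcm2, Mcm6 and Hells, higher (9.9%). The G2/M-led cells behind these values were 3 of 11 cycling SM22-SmoM2 cells and 16 of 22 control cells, so the sums rest on few cells. In immune-like cells 23 members held 10 UMIs, 10 G2/M genes were higher (15.2% of all genes) and 8 S genes lower (25.5%). These sums run over all 33 SM22-SmoM2 and 82 control cells, of which 2 and 5 were cycling. Among the lower genes, Mcm6 and Mcm7 had 0 SM22-SmoM2 UMIs, which were set to 3 in the ratio.

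**Figure D4:**
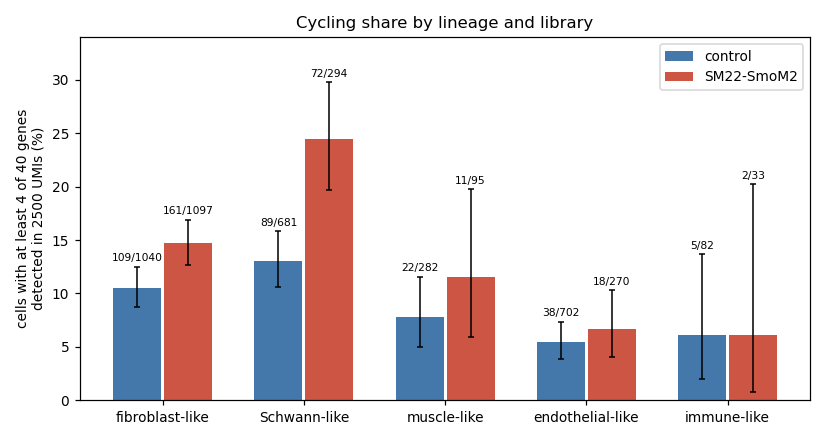
Percent of cells called cycling by lineage (bars, with exact binomial 95% intervals and cell counts above), control in blue and SM22-SmoM2 in red, 1 library each. The Schwann-like bars (13.1% and 24.5%) stand furthest apart, the fibroblast-like bars at 10.5% and 14.7%.

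**Figure D5:**
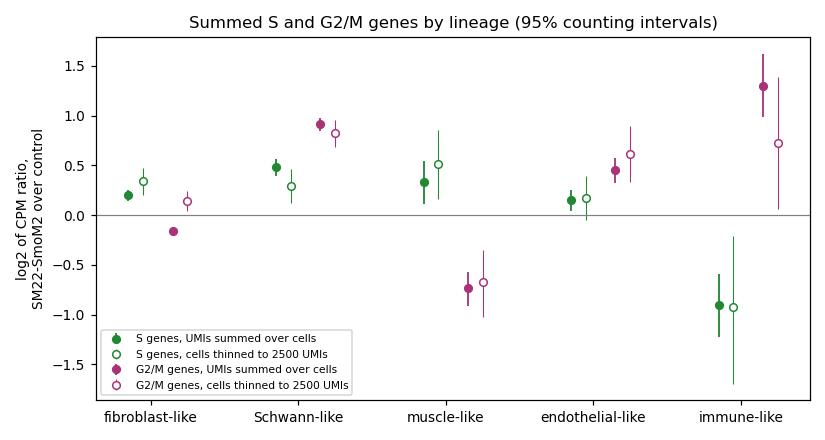
log2 ratio of summed CPM, SM22-SmoM2 over control, for S genes (green) and G2/M genes (purple) in each lineage, from UMIs summed over cells (filled) and from cells thinned to 2500 UMIs (open), with 95% counting intervals. In fibroblast-like cells the G2/M point lies at -0.16 when filled and at 0.14 when open; in the other lineages both points of a set lie on 1 side of 0.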

How the data were processed

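Tomato+ dermal cells of wounds were profiled in 1 control and 1 SM22-SmoM2 library. The authors deposited raw UMI counts per gene and cell, made with bcl2fastq and Cell Ranger on mm10 per the labels; versions and annotation are not given in the sources used here. Barcodes could not be paired with the matrix columns, so barcodes shared by the libraries were not counted. From these counts, cells with over 10% mitochondrial UMIs were left out, and no other cell filter applied, because none had under 200 genes. After scaling every cell to 10000 UMIs and taking logs, 2000 variable genes without the listed cycle genes gave 20 components, and K-means (scikit-learn 1.9.0, 50 starts) gave 20 clusters, with 15 sub-clusters of fibroblasts. Markers were called raised in a cluster when at least 1.5-fold above the median of the clusters. A cluster took the name of the marker list with the highest mean log2 ratio among lists with at least 3 raised markers. One with more than 6 of 12 dermal papilla genes raised was counted as fibroblast, a rule set after the clusters were seen. From the fibroblasts, 2 sub-clusters with more markers of other lineages than of fibroblasts among their 10 leading genes (54 control and 2 SM22-SmoM2 cells) were left out. In 1 of them, with 47 control cells and 1 SM22-SmoM2 cell, the melanocyte gene Mlana was the only such marker. Of the 54 control cells, 2 were cycling (3.70%). Doublets were kept; Scrublet marked 5 control and 11 SM22-SmoM2 cells, too few for it to have worked.

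Levels are CPM of UMIs summed over cells (12964 to 14153 genes with at least 10 UMIs per fibroblast comparison), with exact Poisson intervals; ratios have exact conditional and shares Clopper-Pearson 95% intervals, and a difference of shares combines both shares' intervals. UMIs of these genes sit in few cells, so intervals on sums are too narrow. A sum of 0 UMIs was set to 3 in ratios. A test needs replicate libraries, so none was run and no p-value is given. The calculation of ratios and intervals was checked on simulated Poisson counts. These counts do not hold UMIs concentrated in few cells, so the check cannot tell whether the intervals are wide enough here. All 40 members are given by role, and a few genes of the other lists, with the Hedgehog target detection that used one, are not reported here; the genes in no list are the 10 highest and 5 lowest by the smaller of the 2 libraries' ratios, with at least 50 UMIs in each library, without mitochondrial, ribosomal protein or sex-linked genes. The members and lists were chosen with earlier results of these data known. Cells were thinned with numpy 2.4.6.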

Additional observations from a re-analysis of the deposited data

Results flagged for a closer look

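The summed G2/M genes moved in opposite directions in different lineages, a difference that was not tested because each genotype has 1 library. The log2 ratio of SM22-SmoM2 over control was -0.16 in fibroblast-like cells, 0.91 in Schwann-like, 0.45 in endothelial-like and 1.30 in immune-like cells. With each cell thinned to 2500 UMIs the fibroblast value was 0.14, so that the opposite directions are not seen there, while muscle-like cells stood at -0.74 by summed UMIs and -0.68 after thinning. After thinning the G2/M value was 0.82 in Schwann-like, 0.61 in endothelial-like and 0.73 (0.06 to 1.38) in immune-like cells. The summed S genes were at 0.20 in fibroblast-like and -0.90 in immune-like cells, also not tested. Both immune-like values rest on 33 SM22-SmoM2 cells, and the G2/M value of 1.30 on 147 control and 189 SM22-SmoM2 UMIs.

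Keratinocyte-like cells took no part in the comparisons, because the SM22-SmoM2 library held 1 of them. Of the 15 in the control library 6 were cycling (40%, exact binomial interval 16.3 to 67.7%), above the 10.5% of control fibroblasts. Of these 6 cells, 3 held exactly 4 of the genes, the fewest the call allows, and none held more than 7. Control cycling fibroblasts held a median of 9.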

How the results depend on the processing

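The larger cycling share of SM22-SmoM2 fibroblasts (4.20 percentage points) stayed within its interval when cells were thinned to 1500 or 5000 UMIs, when 3 or 6 genes were asked for, when S or G2/M genes alone were used, under other mitochondrial limits, clusterings and seeds, in male and in female cells, and without the deepest cells. It also stayed there without doublet candidates. That setting says nothing about doublets, because Scrublet marked 0 of the 109 control and 0 of the 161 SM22-SmoM2 cycling fibroblasts. The difference was -0.646 points without thinning, and, in alternatives added after the data were seen, 8.17 in shared sub-clusters and 7.40 without the sub-cluster led by Nov and Dlk1. The libraries differed in sex mix, with 631 male and 196 female control fibroblasts against 815 and 48 in SM22-SmoM2. In male cells the difference was 2.52 points, from shares of 12.2% in control and 14.7% in SM22-SmoM2 whose intervals overlap. In female cells it was 6.42 points, which rests on 7 cycling cells of 48 in SM22-SmoM2 and 16 of 196 in control. The shares themselves moved with the depth: at 1500 and 5000 UMIs they were 8.56% and 16.3% in control and 10.8% and 20.3% in SM22-SmoM2 fibroblasts, 9.69% and 29.3% in control and 19.7% and 51.5% in SM22-SmoM2 Schwann-like cells, and 2.56% and 13.2% in control and 3.33% and 14.7% in SM22-SmoM2 endothelial-like cells. The Schwann-like difference (11.4 points) was 22.2 at 5000 UMIs and 2.46 with clusters weighted alike. The endothelial-like difference (1.25) was -6.95 without thinning, the muscle-like one (3.78) -0.765 at 1500 UMIs, and the immune-like one (-0.0370) 1.49 at 5000 UMIs, 1.81 with 6 genes and 0.972 without cells holding both sexes' transcripts. The fibroblast S ratio (0.20) was 0.32 as a mean of per-cell CPM, 0.34 in thinned cells, 0.42 in female cells and 0.46 without the sub-cluster led by Nov and Dlk1. The G2/M ratio (-0.16) turned to 0.144, 0.142, 0.69 and 0.094 in these settings, and was -0.083 without the 5 cells richest in these UMIs, -0.40 in male cells, -0.11 with no mitochondrial limit and -0.22 with cycle genes kept for clustering. Members 1.5-fold higher numbered 10 (and 1 lower) in thinned cells and 6 without mitochondrial and ribosomal protein UMIs, against 3 and 0. Cdc20 (0.093) and Plk1 (0.36) changed sign in thinned cells, with intervals that span 0. The causes were not tested. The other 75 recomputed main values kept their direction and stayed within their interval or within 1.5 times their count. No paired analysis was possible because each genotype has 1 library, and for the same reason no library could be left out in turn.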
